A study of Drosophila melanogaster with 27 samples.

Results

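Total head RNA of flies that expressed TDP-43 G298S YFP in mushroom body neurons was compared with total head RNA of flies that expressed YFP alone. The comparison uses 6 of the 27 libraries of the study, found by their titles: 3 TDP-43 G298S inputs and 3 YFP inputs, written here with their lysate numbers as G298S-503, G298S-506, G298S-203, YFP-901, YFP-902 and YFP-201. An input is the part of a head lysate that was set aside before the GFP-Trap beads were added, so no pull-down entered these values. The study sequenced an input, an IP and an unbound library from each of 9 lysates, and was designed to find mRNAs bound to TDP-43 rather than to compare genotypes.

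The G298S flies were of a w background and carried UAS TDP43G298S-YFP together with UAS mCD8-RFP (line TDP-94), which encode human TDP-43 with an ALS-linked substitution, tagged with YFP, and a membrane-bound red fluorescent protein. The YFP flies were yw and carried the cytoplasmic reporter UAS-2XEYFP (line GRYFP-5), and their label lists no mCD8-RFP. In both genotypes the SS01276 split-GAL4 driver was used, which the study uses for mushroom body neurons. All flies were adults of day 1 to 3, with both sexes pooled in equal numbers, and a lysate held the heads of many flies, shaken off frozen bodies and sieved. The labels give mushroom body Kenyon cells as the cell type, but the RNA came from the whole head. The genotypes therefore differed in the TDP-43 transgene, the RFP transgene, the line and the w or yw background, and these cannot be told apart here. The labels of G298S-503 and G298S-506 share a prefix that no YFP lysate has, those of YFP-901 and YFP-902 share another, and G298S-203 and YFP-201 have a common one, so this last pair is the only one within a prefix. Inputs of flies with wild-type (WT) TDP-43 YFP, of the same age, also entered the fit as a further group. The paper lists their line as w with UAS TDP-43 WT YFP and UAS mCD8-RFP.

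TDP-43 is a nuclear RNA-binding protein that takes part in splicing, transport and translation of many neuronal mRNAs, and it leaves the nucleus and aggregates in most cases of ALS and in many of frontotemporal dementia. The fly ortholog is *TBPH*. Mushroom body neurons, or Kenyon cells, serve olfactory memory and are a small share of the cells of a fly head, which also holds the retina with its photoreceptors and pigment cells, other neurons, glia, muscle, fat body, cuticle and sense organs.

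The inputs held 36171288 to 157035496 counted reads in G298S and 16845284 to 24557729 in YFP. Of these, *mt:lrRNA*, the large ribosomal RNA of mitochondria, made up 43.4% to 45.1% in G298S inputs and 24.5% to 26.9% in YFP inputs. YFP-901 and YFP-902 stood apart from all other inputs: they had 191.8 and 180.6 on the first principal component, which carried 80.9% of the variance, against 8.885 for YFP-201. They also had fewer genes above 0.1 CPM (read counts scaled to a common library size), 11648 and 11564, against 13360 to 13956 in G298S inputs and 13573 in YFP-201. No pair of the 6 libraries agreed within counting noise, the closest being YFP-901 and YFP-902 with a chi-square of 13.6 per gene. The transgenes are not in the count table, so expression of TDP-43 or YFP could not be checked. Defining markers of the head were present in all 6 libraries, and the whole lists are given below.

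In the edgeR fit, 1922 of 13151 genes tested (14.6%) were higher in G298S inputs and 2185 (16.6%) were lower at an adjusted p below 0.05. Of these, 1323 (10.1%) had a log2 fold change (log2FC, G298S over YFP) above 1 and 534 (4.06%) had one below -1. All 3 G298S libraries lay above all 3 YFP libraries for 29.6% of the genes tested, and below them for 30.4%. The p-values rest on the spread within groups over all 9 inputs, those of WT TDP-43 included, and cover these lysates only. With only the 6 G298S and YFP inputs fitted, 2267 genes were higher and 2819 lower. Of the genes called higher, 512 had a YFP mean below 1 CPM. Many of the calls depended on YFP-901 and YFP-902. Without both a single YFP library is left, so a drop in calls there cannot be told apart from a loss of power. The median log2FC of that fit was -0.94 for the photoreceptor and 1.32 for the synaptic list. For the ovary follicle cell list it was -0.60, against 0.83 in the full fit. Leaving out YFP-902 alone left 772 higher and 928 lower, leaving out YFP-901 left 1015 and 1273, leaving out YFP-201 gave 3776 higher, and leaving out G298S-203 left 1422 lower. The scaling also mattered, since 46.8% of the calls were higher with TMM but 23.1% (1464 higher, 4880 lower) with library sizes alone, which moved the median of all genes by -0.32.

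The unbound libraries of the same 6 lysates held the RNA left after the GFP-Trap beads, from which RNA retained with the YFP-tagged protein had been taken. There 290 of 12714 genes (2.28%) were higher and 144 (1.13%) lower in G298S. Of the 1922 genes higher in inputs, 1868 were tested in the unbound fraction, and 730 (39.1%) had the same sign there and 152 were called higher. Of the 2185 lower genes, 1267 of 2178 (58.2%) had the same sign and 133 were called lower. The 152 and 133 are 52.4% of the higher and 92.4% of the lower calls of the unbound fraction, and 7.9% and 6.1% of those of the inputs. A fit over both fractions with the lysate as a replicate block found the genotype difference to differ between input and unbound fraction for 4198 of 13210 genes (31.8%), with 2442 (18.5%) above 0 and 1756 (13.3%) below. With library sizes alone these were 1411 and 5917, and without lysate G298S-506 they were 2030 and 539. Unbound values are therefore given below for many of the groups and single genes, but not for all.

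**Figure D1:**
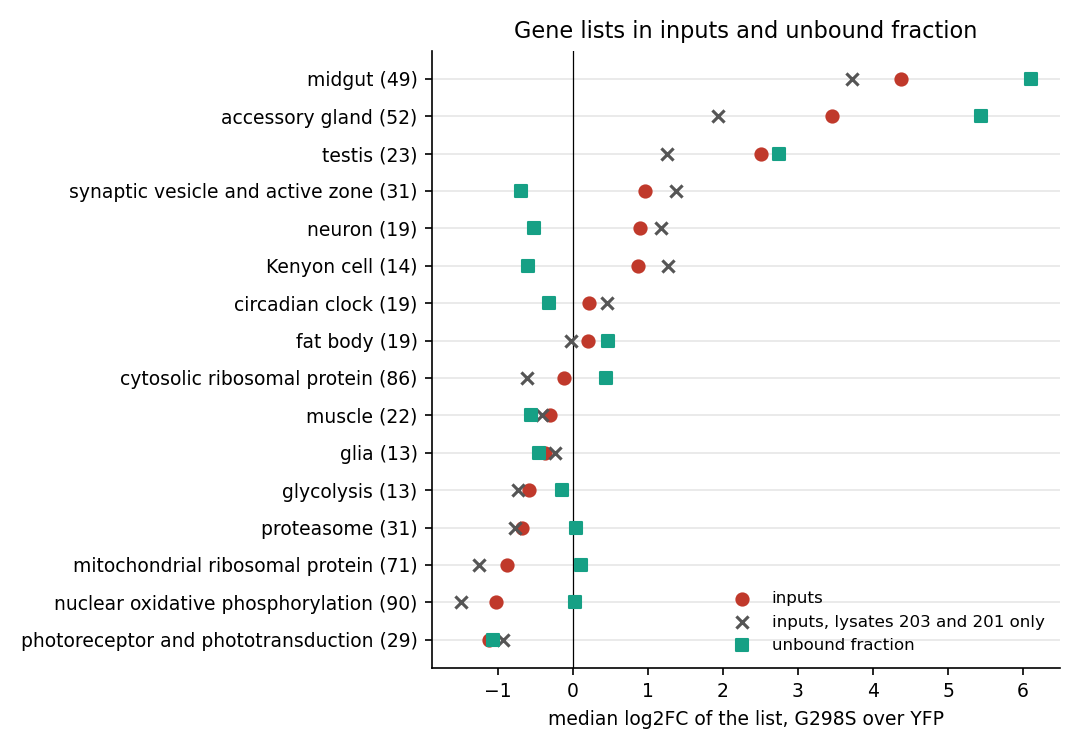
Median log2FC of G298S over YFP for each gene list, in the 3 against 3 inputs, in the pair G298S-203 and YFP-201 and in the unbound libraries of the same lysates (x axis, log2 units). Midgut, accessory gland and testis lists lay above 1 in all of them and the photoreceptor list lay near -1, while neuron, synaptic and Kenyon cell lists were above 0 in inputs and below 0 in the unbound fraction. Only 9 midgut, 5 accessory gland and 3 testis genes had at least 10 counts in every input.

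Genes of photoreceptors were lower in G298S heads. Of 29 photoreceptor and phototransduction genes tested, 21 fell and 1 rose (all genes, 16.6% and 14.6%), with a median log2FC of -1.12. The unbound libraries gave the same direction, with 17 of the 29 lower (all genes, 1.13%), none higher and a median of -1.06. The summed level of the list was 15880, 15850 and 16240 CPM in G298S inputs, against 32610, 34790 and 36500 CPM in YFP inputs. The highest G298S sum was below the lowest YFP sum. Leaving out 1 library at a time kept 19 to 21 genes lower. Without YFP-901 and YFP-902 together, with a single YFP library left, the median log2FC was -0.94. In bulk RNA such as this, fewer cells of a type and less RNA per cell cannot be told apart.

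*Rh6* encodes a rhodopsin of the inner photoreceptor R8 and had 132.8, 153.2 and 134.7 CPM in G298S inputs, against 577, 623 and 637 CPM in YFP inputs. Its log2FC was -2.13 ± 0.25 (SE; adjusted p = 0.0038), and in the unbound fraction it was -1.70. *Rh4*, a rhodopsin of ultraviolet-sensitive R7 cells, had 325, 346 and 333 CPM in G298S, against 1079, 1178 and 1359 CPM in YFP, a log2FC of -1.85 ± 0.22 (adjusted p = 0.0038). For both rhodopsins the highest G298S library was far below the lowest YFP library. *ninaA*, a chaperone that moves rhodopsin out of the endoplasmic reticulum, had 50.4, 47.1 and 42.8 CPM in G298S and 148.9, 167.3 and 222.9 CPM in YFP (log2FC -1.94, adjusted p = 0.0043). The model of *ninaA* overlaps *CG15824* and the use of strand in counting is not known. *Arr1*, one of the arrestins that switch off activated rhodopsin, had 738, 805 and 817 CPM in G298S against 2255, 2723 and 3218 CPM in YFP (log2FC -1.80, adjusted p = 0.0038). The other arrestin, *Arr2*, had 2602, 2213 and 2556 CPM in G298S against 6819, 7263 and 8661 CPM in YFP (log2FC -1.63, adjusted p = 0.0054). Both arrestins also fell in the unbound fraction, with log2FC values of -1.03 and -0.96.

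The most abundant mRNA of the list, *ninaE*, encodes the rhodopsin of the outer photoreceptors. It had 4567, 4986 and 5130 CPM in G298S inputs, against 8082, 8897 and 9518 CPM in YFP inputs. Its log2FC of -0.85 ± 0.25 (adjusted p = 0.032) was closer to 0 than those of *Rh4* and *Rh6*, and the call was lost without G298S-503, YFP-901 or YFP-902. In the unbound fraction *ninaE* had 4373, 4148 and 4693 CPM in G298S against 8453, 8960 and 11370 CPM in YFP, and was called lower (log2FC -1.12, adjusted p = 0.032). *Ggamma30A*, the gamma subunit of the visual G protein, had a log2FC of -0.77 (adjusted p = 0.045), a call lost without any of the libraries G298S-503, G298S-203, YFP-901, YFP-902 or YFP-201. *Pdh*, a retinal enzyme of the chromophore cycle, had 766, 768 and 739 CPM in G298S against 2586, 2937 and 3841 CPM in YFP (log2FC -2.04, adjusted p = 0.0038), but its model overlaps *Tcs3* and an antisense RNA. The single member that rose was *inaE*, a diacylglycerol lipase, at 36.0, 35.8 and 32.5 CPM in G298S against 22, 23.6 and 19.1 CPM in YFP (log2FC 0.69, adjusted p = 0.037). Its call was lost without YFP-901 or YFP-902, and its unbound log2FC was -0.45.

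Genes of eye pigment were less uniform, with 8 of 18 lower and 1 higher. The gene *w* (white), a subunit of the transporter for eye pigment precursors and the marker gene of many fly transgenes, had 15.5, 14 and 14.5 CPM in G298S inputs against 44.2, 44.3 and 38.0 CPM in YFP inputs. Its log2FC was -1.52 ± 0.19 (adjusted p = 0.0038) in inputs and -1.75 (adjusted p = 0.0067) in the unbound fraction. The label of both lines names an allele of *w*, and which copy of the gene gave these reads is not known. Its partner scarlet, *st*, fell by a similar amount, at 8.99, 9.16 and 9.11 CPM in G298S and 22, 21.4 and 19.1 CPM in YFP (log2FC -1.20, adjusted p = 0.0038). *cd*, the heme peroxidase of brown pigment synthesis, had a log2FC of -1.58 (adjusted p = 0.006). The member that rose was *g* (garnet), a subunit of the AP-3 trafficking complex, with a log2FC of 1.02 (adjusted p = 0.025) that was lost without YFP-901 or YFP-902 and an unbound value of -0.62. Leaving out YFP-901 or YFP-902 left 5 or 4 eye pigment genes lower. The body pigment gene *y* (yellow), which differs between the backgrounds by label, had 1.10, 2.7 and 2.52 CPM in G298S and 1.49, 1.52 and 1.25 CPM in YFP, and the groups overlapped (log2FC 0.57, adjusted p = 0.38).

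**Figure D2:**
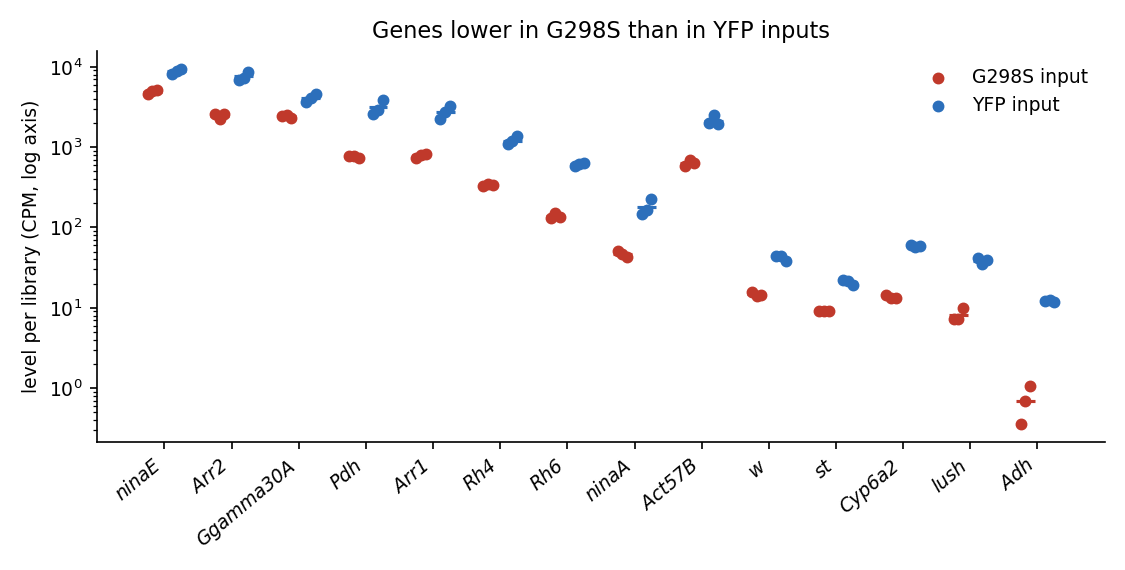
Level in CPM (y axis, log scale) of genes lower in G298S in each of the 3 G298S inputs and the 3 YFP inputs, each point 1 library and each bar a group mean. The 3 G298S libraries lie below the 3 YFP libraries for every gene drawn, as for Adh at 0.358 to 1.06 CPM against 11.8 to 12.7 CPM.

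Several of the genes with the largest fall are not known as eye genes. *Adh*, the alcohol dehydrogenase, had 0.358, 0.682 and 1.06 CPM in G298S inputs against 12.3, 12.7 and 11.8 CPM in YFP inputs, a log2FC of -4.10 ± 0.53 (adjusted p = 0.0041). Its unbound levels of 0.311, 1.64 and 0.802 CPM in G298S against 11.6, 12.7 and 13.1 CPM in YFP gave a log2FC of -3.79. *Cpr62Ba*, a cuticle protein, had 1.43, 1.27 and 1.14 CPM in G298S against 10.3, 11.3 and 13 CPM in YFP (log2FC -3.17, adjusted p = 0.0038). For both genes the fall held in the unbound fraction at an adjusted p of 0.021 and 0.0089. *dyw* (daywake), a gene of the takeout family tied to sleep, had 9.15, 18.1 and 17.7 CPM in G298S against 135.4, 108.3 and 118.4 CPM in YFP (log2FC -3.01, adjusted p = 0.0038). It overlaps the clock gene *per*, and reads of the 2 genes cannot be told apart without strand. *Osi2*, one of the Osiris genes of insects, had 1.3, 2.50 and 2.35 CPM in G298S against 8.97, 11.3 and 13.4 CPM in YFP (log2FC -2.45, adjusted p = 0.0038). The calls of *Cpr62Ba*, *dyw* and *Osi2* were also made without YFP-901 and YFP-902, with adjusted p values of 0.045, 0.045 and 0.04.

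*Ubx*, the Hox gene of the posterior thorax and first abdominal segment, had 1.85, 3.38 and 1.62 CPM in G298S inputs against 11.4, 12.9 and 9.69 CPM in YFP inputs (log2FC -2.32, adjusted p = 0.0062). Its unbound levels were 0.673, 0.86 and 0.885 CPM in G298S and 12.1, 10.2 and 15.7 CPM in YFP, with a log2FC of -3.97, and the difference between the fractions passed its test (adjusted p = 0.0041). *lush*, an odorant-binding protein needed to sense the male pheromone, had 7.31, 7.28 and 9.84 CPM in G298S against 41.8, 34.6 and 39.2 CPM in YFP (log2FC -2.24, adjusted p = 0.0043). *Cyp6a2*, a cytochrome P450 of xenobiotic metabolism, was among the most even, at 14.5, 13.4 and 13.3 CPM in G298S against 59.8, 57.0 and 59.4 CPM in YFP (log2FC -2.10 ± 0.12, adjusted p = 0.00024), and was called without YFP-901 and YFP-902 too (adjusted p = 0.025). The related mitochondrial P450 *Cyp12d1-p* had 0.276, 0.325 and 0.338 CPM in G298S against 1.80, 1.90 and 1.89 CPM in YFP (log2FC -2.56). The remaining genes in the 12 of largest fall were *Cpr49Ac*, another cuticle protein (log2FC -2.44), and *CG32640*, *CG18473*, *CG11052*, *CG34005* and *CG13154*, with log2FC values of -2.86, -2.66, -2.35, -2.27 and -2.20. *CG34005* and *CG13154* overlap other gene models. Side by side, WT TDP-43 inputs over the same YFP inputs gave log2FC values of -3.52 for *Adh*, -1.28 for *dyw*, -3.53 for *Ubx*, -1.97 for *Cyp6a2* and -1.37 for *w*.

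In the wider lists of these kinds, 32 of 65 oxidative stress and xenobiotic genes fell and 4 rose in inputs. Over all genes these shares were 16.6% and 14.6%, and the median log2FC of the list was -0.57. In the unbound fraction the median was 0.22, with 3 called lower and 4 higher (all genes, 1.13% and 2.28%). There 42 were above 0 and 23 below. The difference between the fractions was below 0 for 31 and above 0 for 2 (all genes, 13.3% and 18.5%). *GstE14*, a glutathione S-transferase that also acts in ecdysteroid synthesis, had a log2FC of -1.79 (adjusted p = 0.0038). *Cyp6g1*, the P450 known from DDT resistance, rose, at 280.4, 235.3 and 217.4 CPM in G298S against 157.1, 147.2 and 174.7 CPM in YFP (log2FC 0.61, adjusted p = 0.033), and rose in the unbound fraction (log2FC 1.15). The input call of *Cyp6g1* was lost when any library but YFP-201 was left out, and its model overlaps *Cyp6g2*. Of 57 cuticle genes 21 fell and 3 rose, and 9 were lower without YFP-902 and 11 without YFP-901. Of 77 odorant-binding and chemosensory genes 15 fell and 3 rose, near the 16.6% of all genes. Among them *Or47a*, an odorant receptor, had 3.36, 2.7 and 3.56 CPM in G298S against 8.07, 9.0 and 9.04 CPM in YFP (log2FC -1.44, adjusted p = 0.005), with an overlap with *Cpr47Ea*.

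Few muscle genes were called in inputs, and those were lower. The actin gene *Act57B* had 581, 682 and 639 CPM in G298S inputs against 1980, 2481 and 1918 CPM in YFP inputs (log2FC -1.75 ± 0.17, adjusted p = 0.0038), and fell in the unbound fraction (log2FC -1.34). *wupA*, troponin I, had a log2FC of -0.85 (adjusted p = 0.027) that was lost without G298S-503, G298S-203, YFP-902 or YFP-201. In all, 4 of 22 muscle genes fell, which is close to 16.6%, and 0 rose. Leaving out any 1 of these 4 libraries left 1 lower, against 3 without YFP-901 and 6 without G298S-506. In the unbound fraction the median was -0.56, with 3 called lower and 0 higher (all genes, 1.13% and 2.28%). There 13 were lower and 1 higher at an unadjusted p below 0.05 in edgeR (of all 12656 genes, 1035 and 2224). *Argk1*, arginine kinase, an energy-buffering enzyme of muscle and neurons, had 2000, 1900 and 1818 CPM in G298S against 2862, 3353 and 3882 CPM in YFP (log2FC -0.82, adjusted p = 0.017, lost without YFP-902).

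The largest rise was that of *mthl8*, a G protein-coupled receptor of the methuselah-like family. It had 11.6, 11.0 and 12.9 CPM in G298S inputs and no read in any YFP input. Against a floor of 3 counts over the YFP group, or 0.0463 CPM, it was at least 256-fold higher. The unbound levels were 9.27, 8.21 and 9.73 CPM in G298S, again with no read in YFP. WT TDP-43 inputs over the same YFP inputs also gave a called rise of *mthl8* (adjusted p = 7.4e-05), and the call of G298S was kept without YFP-901 and YFP-902 (adjusted p = 0.0015). No other gene in the 12 of largest rise kept its call in that setting.

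Digestive enzymes of the midgut rose in G298S inputs. Of 49 tested 30 were higher and 2 lower (14.6% and 16.6% of all genes), with a median log2FC of 4.37 in inputs, 6.11 in the unbound fraction and 3.73 in the pair G298S-203 and YFP-201. Most of these genes passed the filter on low counts through the G298S libraries, since 37 of the 43 with a log2FC above 1 had a YFP mean below 1 CPM, so that this median is no support by itself. Only 9 members had at least 10 counts in every input, with 6 higher, 1 lower and a median of 1.05. *Jon25Biii*, a Jonah serine protease, had 5.51, 8.97 and 18.5 CPM in G298S against 0, 0 and 0.0402 CPM in YFP (adjusted p = 0.0038). The YFP value was a single count, in YFP-201. *Jon65Aii* had 2.81, 3.96 and 15 CPM in G298S, and likewise 1 count in YFP-201. *Jon65Ai* and *Jon74E* had no count in YFP inputs and were at least 36.6-fold and 14.5-fold higher in G298S. The summed level of the list was 481.5, 680.5 and 1085 CPM in G298S and 291.4, 286.5 and 335.3 CPM in YFP. The 2 lower members were the maltase *Mal-A5* (log2FC -0.59, adjusted p = 0.023) and the protease *Ser7* (log2FC -0.41, adjusted p = 0.047), and each was lost without YFP-901 or YFP-902. The call of *Ser7* was lost without any of the other 4 libraries too, and the list had 16 higher members without YFP-902.

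Genes of the male accessory gland, which makes seminal fluid, were higher as well, with 44 of 52 above YFP in every library (29.6% of all genes) and 11 called. The median log2FC was 3.45 in inputs, 5.44 in the unbound fraction and 1.94 in the pair G298S-203 and YFP-201. Here too the filter kept genes that were high in G298S, with 26 of the 51 above 1 at a YFP mean below 1 CPM, and of the 5 members with at least 10 counts in every input 3 were higher, with a median of 2.31. With the label prefix as a term 1 member was called. The summed level of the list was 1108, 4661 and 2388 CPM in G298S and 172.6, 168.5 and 665.2 CPM in YFP, highest in G298S-506. *Acp36DE*, a seminal protein of sperm storage, had 70.9, 304.6 and 215.1 CPM in G298S against 0, 0.0952 and 9.20 CPM in YFP (adjusted p = 0.04). YFP-201 had nearly all YFP reads of this gene, and it decided the count: 50 members were called without it, against 1 without YFP-902, 4 without YFP-901, 2 without G298S-506 and 4 without G298S-203. The calls of *Acp36DE* and *Acp76A* (adjusted p = 0.048) and of *Obp51a*, an odorant-binding protein (adjusted p = 0.042), were lost without G298S-506, G298S-203, YFP-901 or YFP-902, and that of *Acp76A* without G298S-503 too. *Acp54A1* had 19.3, 117.4 and 29.7 CPM in G298S against 0.318, 0.524 and 2.29 CPM in YFP (adjusted p = 0.014, lost without YFP-902). *Sfp24Ba*, named as a seminal fluid protein, had 3.75, 23.5 and 9.98 CPM in G298S against 1 count in YFP-201 (adjusted p = 0.0041).

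Testis genes had a median log2FC of 2.51, with 2 of 23 called higher, and 21 called without YFP-201. Only 3 members had at least 10 counts in every input, with 1 higher and a median of 1.31, so the median of the whole list is no support by itself. Their summed level was 237.6, 629.1 and 461.9 CPM in G298S against 30.8, 31.5 and 184.9 CPM in YFP. The 2 called genes were *can* (cannonball), a testis form of a transcription factor subunit, at 0.221, 0.812 and 0.689 CPM against 0, 0 and 0.0804 CPM (adjusted p = 0.043), and *svp*, a nuclear receptor that other tissues also use (log2FC 1.13, adjusted p = 0.0099). *svp* was not chosen as a testis marker and entered the list through the match of an older symbol. *can* was lost without G298S-506, G298S-203, YFP-901 or YFP-902. Genes of the ovarian follicle cells, which lay down the eggshell, followed another pattern, and 0 of 22 were called by edgeR or DESeq2, with 1 at an unadjusted p below 0.05. The chorion gene *Cp36* had 136.3, 0 and 98.6 CPM in G298S against 0.0531, 0.0476 and 115.0 CPM in YFP, and *Cp38* had 125.2, 0.0325 and 79.1 CPM in G298S against 0.318, 0.190 and 85.4 CPM in YFP. Both were thus near 0 in G298S-506, YFP-901 and YFP-902 and high in the other 3 libraries (adjusted p = 0.79 and 0.73). How much body tissue was carried into each head sample was not tested.

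**Figure D3:**
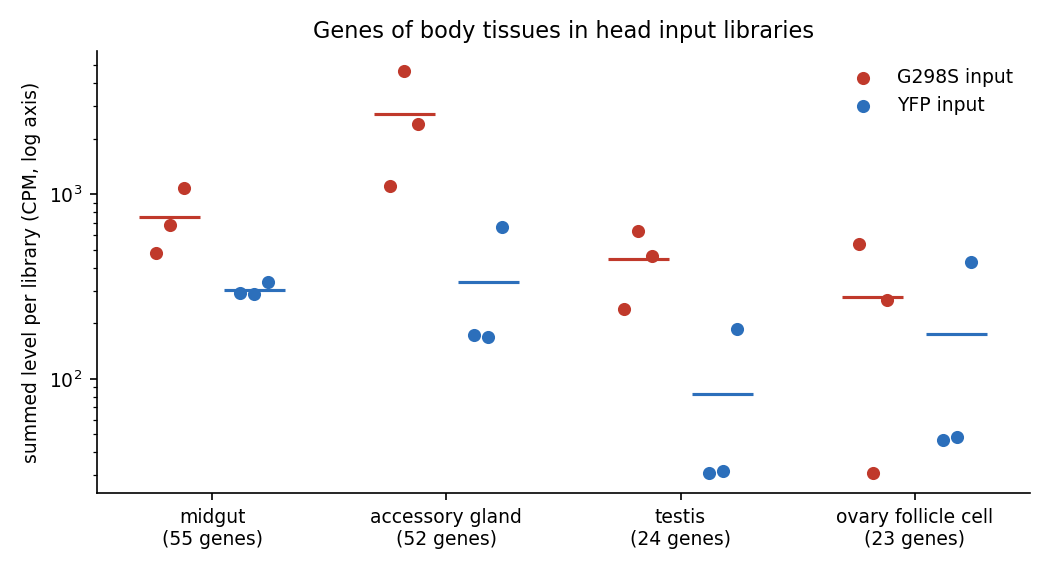
Summed CPM (y axis, log scale) of the midgut, accessory gland, testis and ovary follicle cell lists in each G298S and YFP input, each point 1 library. Accessory gland sums were 1108 to 4661 CPM in G298S and 168.5 to 665.2 CPM in YFP, while ovary follicle cell sums of the groups overlapped, with 30.8 CPM in G298S-506 and 428.6 CPM in YFP-201.

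The other genes among the 12 of largest rise were *CG12374*, *CG17242*, *CR6434*, *CG31233*, *CG8661*, *CG12057*, *CG45080* and *CG16826*, all near 0 in YFP. *CG12374* had 33.0, 116.7 and 286.3 CPM in G298S against 0, 0.0952 and 1.25 CPM in YFP. *CG17242* had 4.83, 25.1 and 8.55 CPM in G298S and 1 count in YFP-201. The calls of *CG45080* and *CG16826* were lost without YFP-901 or YFP-902, and that of *CG12057* without YFP-902. G298S-503 was far below the other G298S libraries for *CG16826*, at 1.43 CPM against 108.8 and 115.6 CPM.

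Synaptic genes and neuron markers rose in G298S inputs but not in the unbound fraction of the same lysates. Of 31 genes of synaptic vesicles and active zones 23 rose and 0 fell (all genes, 14.6% and 16.6%), with a median log2FC of 0.96, and of 19 neuron markers 11 rose and 0 fell, with a median of 0.90. In the unbound fraction no member of either list was called, and all 31 and all 19 had a log2FC below 0 (5889 of all 12656 genes), with medians of -0.68 and -0.51. The genotype difference was larger in the input than in the unbound fraction for 29 of the 31 and 16 of the 19 (18.5% of all genes). At an unadjusted p below 0.05 in edgeR, 3 synaptic genes and 0 neuron markers were lower there, and none was higher (of all 12656 genes, 1035 lower and 2224 higher). DESeq2 called 27 synaptic genes and 15 neuron markers higher and 0 lower in inputs, and with library sizes alone 21 and 10 rose and 1 and 2 fell. The calls in inputs depended on single YFP libraries: 17 and 10 synaptic genes and 7 and 4 neuron markers were called without YFP-901 and without YFP-902. With the label prefix as a term 16 synaptic genes and 4 neuron markers rose.

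*Syt1*, the calcium sensor of vesicle release, had 310.7, 314.2 and 309.7 CPM in G298S inputs against 140.5, 139.6 and 95.4 CPM in YFP inputs. Its log2FC was 1.32 ± 0.25 (adjusted p = 0.0097). In the unbound fraction it had 131.2, 50.5 and 171.3 CPM in G298S against 208.7, 170.5 and 336.3 CPM in YFP, a log2FC of -1.02 (adjusted p = 0.3). The G298S levels were thus above YFP in every input and, apart from G298S-203 against YFP-902, below it in the unbound fraction, and the difference between the fractions was 2.56 (adjusted p = 0.0016). *VAChT*, the vesicular acetylcholine transporter, which shares its locus with *ChAT*, had 53.9, 62.0 and 48.1 CPM in G298S inputs and 20.9, 19.6 and 12.9 CPM in YFP inputs (log2FC 1.62, adjusted p = 0.0095). *brp*, the active zone scaffold Bruchpilot, had a log2FC of 1.26 (adjusted p = 0.016). *ple*, tyrosine hydroxylase of dopamine synthesis, had 300.6, 522.3 and 457.3 CPM in G298S against 214.1, 180.8 and 174.6 CPM in YFP (log2FC 1.17, adjusted p = 0.014, lost without YFP-902). *Rbp* and *Liprin-alpha*, both active zone proteins, had log2FC values of 1.47 (adjusted p = 0.011) and 1.43 (adjusted p = 0.01). Of the dopamine genes as a whole 3 of 13 rose and 2 fell.

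Kenyon cell markers moved with the neuron and synaptic lists, while of 37 neuropeptide genes 10 fell and 6 rose. The driver acts in a subset of Kenyon cells, and the markers do not single out that subset. Of 14 markers tested 9 rose and 0 fell (all genes, 14.6% and 16.6%), with a median log2FC of 0.87 in inputs. In the unbound fraction the median was -0.59, none was called and 2 were lower at an unadjusted p below 0.05 (1035 of all 12656 genes). The difference between the fractions passed for 13 of 14. *Pka-C1*, the catalytic subunit of protein kinase A in olfactory learning, had 294.2, 297.9 and 282.2 CPM in G298S inputs and 97.1, 99.3 and 53.6 CPM in YFP inputs (log2FC 1.81 ± 0.32, adjusted p = 0.0082). The cAMP phosphodiesterase *dnc* (dunce) had 161.8, 131.8 and 104.4 CPM in G298S against 51.7, 56.4 and 32.6 CPM in YFP (log2FC 1.5, adjusted p = 0.029, lost without YFP-901 or YFP-902). *Dop1R1*, the dopamine receptor of learning, had a log2FC of 1.46 (adjusted p = 0.013), and *mub*, an RNA-binding protein enriched in mushroom bodies, had one of 1.32 (adjusted p = 0.016). YFP-201 was the lowest library for each of these 4 genes. Only 3 Kenyon cell markers were called without YFP-901, 3 without YFP-902, and 4 with the label prefix as a term.

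Of 13 glial genes 1 was higher and 4 lower (all genes, 14.6% and 16.6%), with a median log2FC of -0.37. Leaving out G298S-506, G298S-203, YFP-901 or YFP-902 left 1 lower. In every library 8 lay below YFP and 4 above (all genes, 30.4% and 29.6%). In the unbound fraction 12 of the 13 were below 0 (5889 of all 12656 genes) and none was called. There 6 were lower and 1 higher at an unadjusted p below 0.05 in edgeR (of all 12656 genes, 1035 and 2224). *Eaat1*, the glial glutamate transporter, rose, at 585, 552 and 582 CPM in G298S inputs against 250.2, 243.6 and 195.2 CPM in YFP inputs (log2FC 1.32 ± 0.19, adjusted p = 0.005). Its unbound levels of 281, 161 and 323 CPM in G298S against 322, 276 and 547 CPM in YFP gave a log2FC of -0.58. *alrm*, an astrocyte marker, fell, at 72.2, 69.1 and 71.1 CPM in G298S against 139.5, 128.7 and 152.2 CPM in YFP (log2FC -0.98, adjusted p = 0.0043). *Gs2*, glutamine synthetase, and *Mdr65*, a transporter of the blood-brain barrier, had log2FC values of -0.53 and -0.85 (adjusted p = 0.041 and 0.026). Both were lost without G298S-506, G298S-203, YFP-901 or YFP-902, and *Gs2* without G298S-503 as well.

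**Figure D4:**
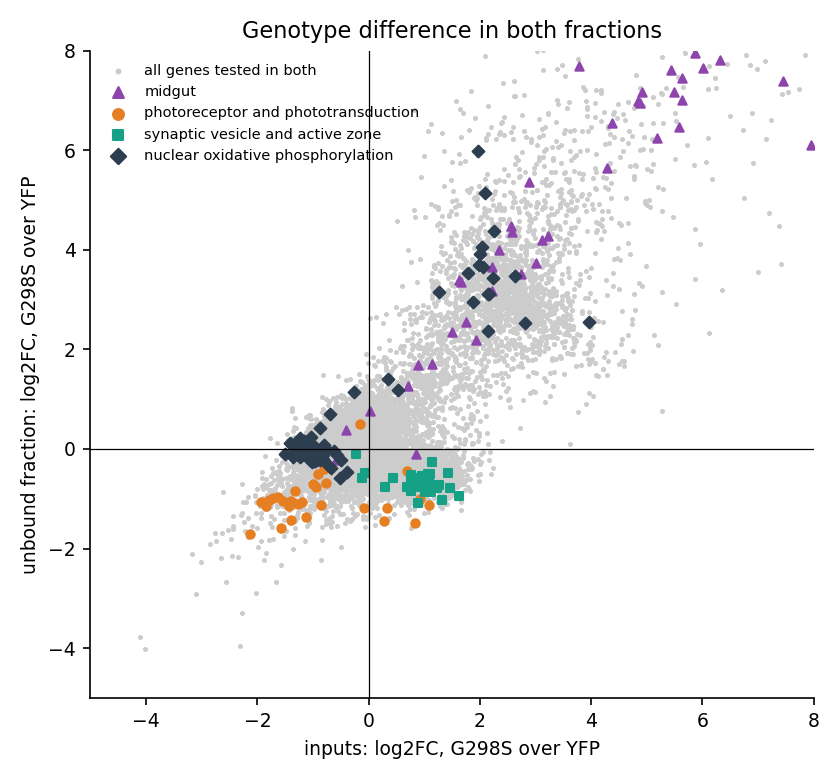
log2FC of G298S over YFP in inputs (x axis) and in the unbound fraction (y axis) for the 12656 genes tested in both, with the midgut, photoreceptor, synaptic and oxidative phosphorylation lists in colour. Of the photoreceptor genes 28 of 29 lie below 0 in the unbound fraction, as do all 31 synaptic genes and 5889 of the 12656 genes. In all, 51 genes fall outside the axes, which run from -5 to 8.

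Nuclear genes of the mitochondrial respiratory chain fell in G298S inputs. Of 90 genes of oxidative phosphorylation 66 fell and 0 rose (16.6% and 14.6% of all genes), with a median log2FC of -1.03, and of 71 mitochondrial ribosomal proteins 61 fell and 0 rose, with a median of -0.88. In the unbound fraction no member of either list was called and the medians were 0.03 and 0.11. At an unadjusted p below 0.05 edgeR had 11 and 3 members higher and 4 and 0 lower there, against 2224 higher and 1035 lower of all 12656 genes. The difference between the fractions was below 0 for 61 of the 90 and 59 of the 71 (13.3% of all genes). Without YFP-902, 54 and 37 members were lower. *COX8*, a subunit of cytochrome c oxidase, had 212.8, 198.7 and 178.2 CPM in G298S inputs against 416.5, 496.3 and 629.3 CPM in YFP inputs (log2FC -1.39 ± 0.21, adjusted p = 0.0058). In the unbound fraction it had 347, 533 and 294 CPM in G298S against 375, 374 and 348 CPM in YFP, which overlap. *ND-23* of complex I and *UQCR-6.4* of complex III had log2FC values of -1.37 and -1.40 (adjusted p = 0.0055 and 0.0085). *ATPsynbeta*, the catalytic subunit of ATP synthase, had 1465, 1484 and 1352 CPM in G298S and 2406, 2761 and 3299 CPM in YFP (log2FC -0.98, adjusted p = 0.0066). Of the mitochondrial ribosomal proteins, *mRpS14* had a log2FC of -1.47 (adjusted p = 0.0054) and *mRpL24* one of -1.27 (adjusted p = 0.0068). *UQCR-6.4*, *ATPsynbeta*, *mRpS14* and *mRpL24* overlap other gene models.

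In the same list, 17 of the 90 genes had a log2FC above 1, none of them called. All 17 are duplicates whose symbols end in L or L with a number, such as *COX4L*, *ND-24L* and *ATPsynbetaL*, which in the fly are known mostly from the testis. Of these, 15 had a YFP mean below 1 CPM, and all 17 were above 1 in the unbound fraction. Without YFP-201, 15 members of the list were called higher, and 66 lower as before.

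Subunits of the proteasome followed the respiratory genes, with 23 of 31 lower and 0 higher, a median log2FC of -0.68 in inputs and of 0.05 in the unbound fraction, where 0 were called and 0 had an unadjusted p below 0.05. Their calls depended on few libraries: 5 were lower without YFP-901, 3 without YFP-902 and 15 without G298S-203. *Prosbeta3* of the core particle had 167.1, 152.9 and 122.4 CPM in G298S against 271.2, 277.4 and 283.9 CPM in YFP (log2FC -0.91, adjusted p = 0.024, lost without G298S-203, YFP-901 or YFP-902). *Rpn9* of the regulatory lid had a log2FC of -0.90 (adjusted p = 0.013). Of 13 glycolysis genes 8 fell and 0 rose, and 4 fell without YFP-902. *Tpi*, triose phosphate isomerase, had 413.5, 388.7 and 311.8 CPM in G298S against 774.6, 832.7 and 918.4 CPM in YFP (log2FC -1.18, adjusted p = 0.0097). *Gapdh1* and *PyK*, later steps of the pathway, had log2FC values of -1.0 (adjusted p = 0.0095) and -0.80 (adjusted p = 0.0066). Cytosolic ribosomal protein genes had a median log2FC of -0.11 and 1 of 86 was called lower, a count that was 33 with library sizes alone. In the unbound fraction their median was 0.45 and all 86 were above 0 (6767 of all 12656 genes), with 0 called.

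Of 28 transcripts of the mitochondrial genome itself 4 rose and 0 fell, where 14.6% and 16.6% of all genes did. The list depended on the setting, with 2 higher and 2 lower with library sizes alone, 0 higher and 1 lower with the label prefix as a term, 8 higher and 3 lower with the length trend removed, and 2 higher without YFP-901 or YFP-902. The ribosomal RNA *mt:lrRNA* had a log2FC of 1.10 ± 0.24 (adjusted p = 0.014), and in the unbound fraction it took 34.9%, 26.3% and 36.5% of the reads in G298S against 33.1%, 32.7% and 46.1% in YFP. *mt:ND5* and *mt:ND4*, subunits of complex I, had log2FC values of 0.87 (adjusted p = 0.014) and 0.61 (adjusted p = 0.041). With the label prefix as a term these 3 calls were lost, and with library sizes alone those of *mt:ND5* and *mt:ND4*. The call of *mt:ND4* was also lost when any library but G298S-503 was left out.

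Fat body genes rose in part, with 6 of 19 higher and 0 lower, and 4 higher without YFP-901 or YFP-902. Their median log2FC of 0.20 was -0.13 with library sizes alone. In the unbound fraction the median was 0.48, with 17 of the 19 above 0 (6767 of all 12656 genes), 3 called higher and 0 lower. *Desat1*, a fatty acid desaturase of lipid and pheromone synthesis, had 4665, 3862 and 3396 CPM in G298S inputs against 1324, 1470 and 1494 CPM in YFP inputs (log2FC 1.48 ± 0.18, adjusted p = 0.0038). It also rose in the unbound fraction (log2FC 1.11, adjusted p = 0.041). *apolpp*, the main lipoprotein of the hemolymph, had 2707, 2259 and 1825 CPM in G298S and 640, 632 and 712 CPM in YFP (log2FC 1.78, adjusted p = 0.0038), with an unbound log2FC of 0.45 that did not pass (adjusted p = 0.4). *Hml*, a hemocyte protein kept in this list, had 14.8, 11.0 and 12.8 CPM in G298S against 5.25, 5.24 and 5.18 CPM in YFP (log2FC 1.3, adjusted p = 0.0043) and the same value of 1.31 in the unbound fraction.

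Among the most abundant called genes, *pAbp*, the poly(A)-binding protein of translation, had 2945, 2418 and 2306 CPM in G298S inputs against 807, 817 and 607 CPM in YFP inputs (log2FC 1.78 ± 0.30, adjusted p = 0.0069). Its unbound log2FC was -0.29. *Vha16-1*, the proteolipid ring of the vacuolar proton pump, had 2171, 2252 and 2213 CPM in G298S against 992, 963 and 785 CPM in YFP (log2FC 1.28, adjusted p = 0.0061), and an unbound log2FC of -0.51. The groups of both genes were well apart in inputs. *eEF1alpha1*, the elongation factor that brings tRNA to the ribosome, had a log2FC of 0.71 (adjusted p = 0.027), and the noncoding gene *Msr-110* one of 0.63 (adjusted p = 0.028). *CG7203* had one of -0.54 (adjusted p = 0.045). The calls of *eEF1alpha1* and *Msr-110* were lost without YFP-901 or YFP-902, and that of *CG7203* without any 1 of the 6 libraries.

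The log2FC moved with the length of the exons of a gene, and it did so differently in each fraction. Over 12600 genes in 10 bins of equal number, the median log2FC in inputs was -0.29 for genes with a median of 1035 bases and 0.69 for the longest, with a median of 7133 bases. The unbound medians ran the other way, with 0.73 in the shortest bin and -0.48 in the longest. In the pair G298S-203 and YFP-201 it was -0.12 in the shortest bin, -0.55 in the third and 1.03 in the longest. As a description across genes, which share these libraries, Spearman's rho of the log2FC with exon length was 0.135 in inputs, -0.547 in the unbound fraction and 0.342 in the pair. The lists differ in length: the median was 5803 bases for the synaptic list, 6516 for Kenyon cell markers, 813 for oxidative phosphorylation, 783 for mitochondrial ribosomal proteins and 2476 for photoreceptor genes. The part of length in the changes of these lists was not tested gene by gene, but with the length trend removed the median log2FC was 0.40 for the synaptic, 0.31 for the Kenyon cell, -0.77 for the oxidative phosphorylation and -1.32 for the photoreceptor list. In that setting 17 synaptic genes rose and 1 fell, 5 Kenyon cell markers rose and 1 fell, and 9 neuron markers rose and 2 fell, with a neuron median of 0.30.

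Some calls of single genes were lost under other settings. With the length trend removed these were *brp*, *mub*, *dnc*, *apolpp*, *Hml*, *dsx*, *inaE*, *can*, *Ser7* and *CG7203*. With the label prefix as a term they included *ninaE* and *inaE* of the photoreceptors, *ple*, *dnc*, the glial genes *Gs2* and *Mdr65*, the seminal genes *Acp36DE*, *Acp76A*, *Acp54A1* and *Obp51a*, and *can*, *g*, *Mal-A5*, *Ser7*, *eEF1alpha1*, *Msr-110*, *Dscam2*, *Vap33*, *sr*, *Hr38*, *Arc1*, *dsx*, *CecA2*, *TotX*, *Tep4*, *Cyp6g1*, *CG17242*, *CG45080*, *CG16826* and *CG12057*. With library sizes alone they included *inaE*, *eEF1alpha1*, *Msr-110* and *Cyp6g1*.

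**Figure D5:**
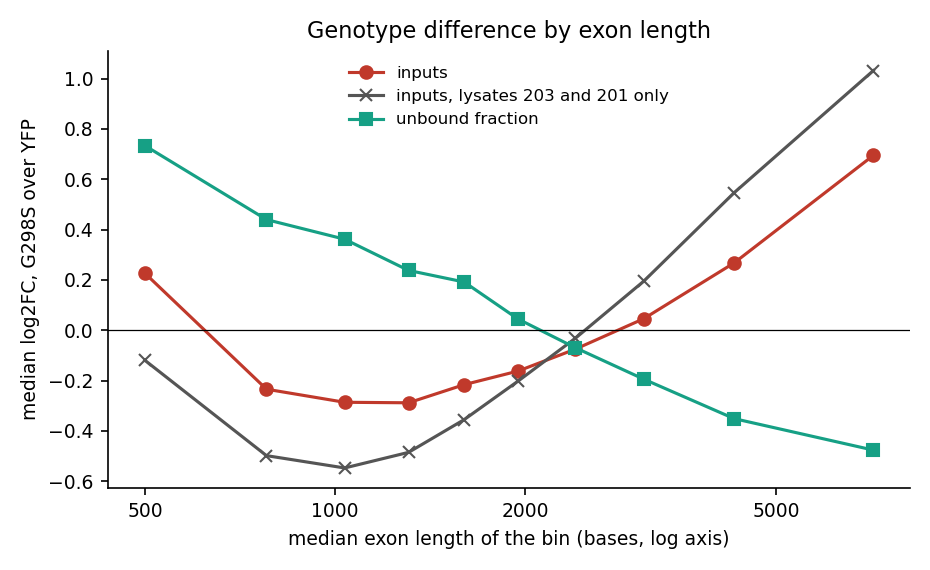
Median log2FC of G298S over YFP (y axis) in 10 bins of exon length (x axis, median length of the bin in bases, log scale) for inputs, the pair G298S-203 and YFP-201 and the unbound fraction. Input and pair medians are highest for the longest genes, at 0.69 and 1.03, and unbound medians are lowest there, at -0.48.

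Among genes tied to TDP-43, the fly ortholog *TBPH* was slightly lower without passing the test, at 49.7, 47.2 and 52.8 CPM in G298S inputs against 68.0, 64.1 and 61.4 CPM in YFP inputs (log2FC -0.37 ± 0.14, adjusted p = 0.065). The groups did not overlap, and DESeq2 called the fall (adjusted p = 0.0095). Of 21 genes that the study names, *TBPH* among them, 8 rose and 0 fell in inputs (all genes, 14.6% and 16.6%), while with library sizes alone 7 rose and 5 fell and with the length trend removed 7 rose and 4 fell, with a median of -0.092. None was called in the unbound fraction, where 7 were lower at an unadjusted p below 0.05 (1035 of all 12656 genes). The difference between fractions was above 0 for 15 (18.5% of all genes). The study reported several of these genes as enriched in the IPs of the same lysates. It names *TBPH* as the fly homolog, and *futsch*, *Dscam2* and *dlp* as targets already known from earlier work. *fz2*, a Wnt receptor, had 63.0, 57.5 and 56.8 CPM in G298S inputs against 22.4, 21.5 and 14.6 CPM in YFP inputs (log2FC 1.6 ± 0.24, adjusted p = 0.0058). Its unbound levels overlapped, at 28.6, 11.6 and 33.8 CPM in G298S against 30.5, 20.2 and 36.6 CPM in YFP. *DIP-alpha*, a cell surface protein of synaptic partner choice, had a log2FC of 1.55 (adjusted p = 0.018). *Dscam2*, an adhesion protein of neuronal wiring, had 32.7, 31.2 and 25.9 CPM in G298S against 17.5, 17.8 and 13.7 CPM in YFP (log2FC 0.88, adjusted p = 0.042), lost without YFP-901 or YFP-902.

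The microtubule-associated protein gene *futsch* had 130.0, 141.2 and 115.0 CPM in G298S inputs against 113.4, 116.1 and 87.1 CPM in YFP inputs. The groups overlapped (log2FC 0.29, adjusted p = 0.45), and the value was -0.037 with library sizes alone. With the length trend removed *futsch* was called lower, at -0.93 (adjusted p = 0.0043). The glypican gene *dlp* had 16.1, 18.1 and 15.3 CPM in G298S against 17.1, 18.4 and 10.6 CPM in YFP, also overlapping (log2FC 0.10, adjusted p = 0.77). Its unbound levels of 8.44, 7.04 and 8.43 CPM in G298S lay below the 15.5, 16.4 and 20.2 CPM of YFP, without passing the test (log2FC -1.12, adjusted p = 0.097). The inducible chaperone gene *Hsp70Bb* had 3.8, 3.15 and 5.02 CPM in G298S against 4.72, 4.81 and 9.36 CPM in YFP (log2FC -0.66, adjusted p = 0.4), and its near-identical copies can share its reads. Of 29 genes of the Wnt pathway and glypicans 10 rose and 1 fell, and 4 rose without YFP-902 and 5 without YFP-901. With library sizes alone 8 of them rose and 6 fell.

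Of 27 fly orthologs of ALS genes 7 rose and 4 fell (all genes, 14.6% and 16.6%), and with library sizes alone 5 rose and 13 fell. *sqd*, an hnRNP of mRNA transport, rose, at 363.4, 329.7 and 286.7 CPM in G298S inputs against 118.7, 116.6 and 92.5 CPM in YFP inputs (log2FC 1.58, adjusted p = 0.0068). *alph*, a protein phosphatase, had a log2FC of 1.64 (adjusted p = 0.0051) and overlaps *CG7568*. Its place in this list was not checked against an ALS gene. *Vap33*, a tether between the endoplasmic reticulum and other membranes, had one of 1.29 (adjusted p = 0.014). *Sod1*, superoxide dismutase, fell, at 484.1, 423.6 and 362.0 CPM in G298S against 660.6, 710.0 and 932.8 CPM in YFP (log2FC -0.86, adjusted p = 0.021, lost without G298S-203 or YFP-902). In the unbound fraction *sqd*, *alph* and *Vap33* had log2FC values below 0 and *Sod1* one of 0.34, none of them called.

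Stress genes gave no common direction in inputs. Of 17 inducible heat shock genes 2 fell and 0 rose: *Hsp23*, a small heat shock protein, at 9.82, 9.94 and 10.8 CPM in G298S against 22.9, 24.5 and 37.3 CPM in YFP (log2FC -1.47, adjusted p = 0.0042), and *Hsp67Bc* (log2FC -0.80, adjusted p = 0.009). *Hsp23* was also called without YFP-901 and YFP-902 (adjusted p = 0.033). Of 21 genes of the unfolded protein response and ATF4 3 rose and 3 fell, near the 14.6% and 16.6% of all genes. *Atf6*, a sensor of misfolded proteins in the endoplasmic reticulum, had a log2FC of 1.33 (adjusted p = 0.0066), and the chaperone *Hsc70-3* one of 0.75 (adjusted p = 0.011). *Atf6* overlaps several transposon insertions in the annotation. Of 50 antimicrobial and immune-induced genes 4 rose and 3 fell in inputs (all genes, 14.6% and 16.6%), with 16 higher without YFP-201. Their median log2FC was 0.21 in inputs and 1.01 in the unbound fraction, where 46 were above 0 (6767 of all 12656 genes). There 5 were called higher and 1 lower. At an unadjusted p below 0.05 in edgeR 38 were higher and 1 lower there (of all 12656 genes, 2224 and 1035). The difference between the fractions was below 0 for 22 (13.3% of all genes). The cecropin *CecA2* had 10.9, 8.84 and 8.52 CPM in G298S against 0.478, 0.619 and 4.22 CPM in YFP (log2FC 2.40, adjusted p = 0.042), and *TotX*, a Turandot stress peptide, had 25.2, 26.7 and 16.5 CPM in G298S against 6.05, 8.09 and 10.8 CPM in YFP (log2FC 1.45, adjusted p = 0.0091). *PGRP-SC2*, a peptidoglycan-cleaving enzyme, rose in inputs (log2FC 2.08, adjusted p = 0.03) and *Tep4*, a thioester protein, fell (log2FC -1.19, adjusted p = 0.0082). The call of *CecA2* was lost when any library but YFP-201 was left out, and that of *PGRP-SC2* without G298S-506, G298S-203, YFP-901 or YFP-902.

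Among activity-regulated genes 6 of 15 rose and 3 fell, and leaving out 1 library gave 4 to 8 higher and 1 to 4 lower. With library sizes alone 5 rose and 5 fell. *sr* (stripe), a zinc finger gene induced by neuronal activity, had 41.1, 36.3 and 30.9 CPM in G298S inputs against 9.18, 10.4 and 7.07 CPM in YFP inputs (log2FC 2.02 ± 0.40, adjusted p = 0.011). *Hr38*, a nuclear receptor with the same use as an activity marker, had 15.2, 16.8 and 15.4 CPM in G298S against 5.68, 5.33 and 5.79 CPM in YFP (log2FC 1.5, adjusted p = 0.012). Neither held in the unbound fraction, where the log2FC values were -0.11 and -0.21. *Arc1*, a capsid-like synaptic protein, fell (log2FC -0.85, adjusted p = 0.016), a call lost without G298S-503 or G298S-203. Of 19 genes of the clock list, which also holds *sr*, 7 rose and 3 fell. *Clk*, the activator of the clock, had 19.7, 17.5 and 21.3 CPM in G298S against 8.71, 7.19 and 5.42 CPM in YFP (log2FC 1.46, adjusted p = 0.0054), and *Pdf*, the neuropeptide of the clock neurons, had 11.7, 12.2 and 11.4 CPM in G298S against 21.5, 26.1 and 34.2 CPM in YFP (log2FC -1.22, adjusted p = 0.0071).

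Of 37 neuropeptide genes 10 fell and 6 rose (all genes, 16.6% and 14.6%), and leaving out 1 library gave 3 to 8 lower and 2 to 8 higher. *Ilp3*, an insulin-like peptide of the brain, had 30.8, 30.9 and 24.8 CPM in G298S against 72.9, 80.0 and 94.3 CPM in YFP (log2FC -1.52, adjusted p = 0.0063). *SIFa*, a peptide of a few neurons that act on feeding and sleep, had a log2FC of -1.24 (adjusted p = 0.004) and overlaps *Start1*. The unbound values of *Pdf*, *Ilp3* and *SIFa* were -0.25, -0.13 and -0.30, none called. Among sex-biased genes 3 of 11 rose and 1 fell: *Sxl*, the switch gene of female development, and *dsx*, which sets sexual traits, had log2FC values of 1.5 (adjusted p = 0.011) and 1.15 (adjusted p = 0.0074), and the male-specific noncoding RNA *lncRNA:roX2* had 28.3, 25.8 and 28.4 CPM in G298S against 48.0, 53.9 and 61.0 CPM in YFP (log2FC -0.98, adjusted p = 0.0088).

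The genes called in both fractions were a narrower set, 152 higher and 133 lower of the 12656 tested in both. Among the 152 higher in both were 22 of the midgut list, the seminal genes *Sfp24Ba* and *Acp54A1*, *Desat1* and *Hml*, *PGRP-SC2* and *TotX*, and *Cyp6g1*. Among the 133 lower in both were 17 of the photoreceptor list, 3 of eye pigment (*cd*, *w* and *st*), 3 cytochrome P450 genes, *Act57B*, *Tep4* and *lush*. No member of the neuron, synaptic, Kenyon cell, glial, oxidative phosphorylation, mitochondrial ribosomal, proteasome or glycolysis lists was called in the unbound fraction. None of them could therefore be called in both. Few genes were called there at all, 289 higher and 144 lower of the 12656.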

How the data were processed

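RNA of 9 fly head lysates was measured as 27 libraries, of which the 9 inputs entered the fit for these comparisons. The deposited table holds raw read counts per gene, which the authors made with bcl2fastq 2.19.1.403, cutadapt 2.7, STAR 2.6.1d and featureCounts 1.6.3 from SMART-Seq HT PLUS libraries. The genome build and the strand setting are not given in the sources used here, so no coordinates are printed. Of 17529 gene identifiers 17425 had a symbol in Ensembl release 115, which also gave exon lengths and overlaps of gene models.

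Counts were tested with edgeR 4.0.16 in R 4.3.3 (TMM, filterByExpr, quasi-likelihood F test, robust), with 3 groups and no covariate, and the contrast was G298S minus YFP. P values were adjusted by Benjamini-Hochberg over the 13151 genes tested. CPM use TMM-scaled library sizes, so that a gene with a very large share of the reads can have more CPM than its share. The reads carry no molecular identifiers, so the counting noise given covers reads and not molecules. The input and unbound libraries of the same lysates were also fitted together with the lysate as a replicate block, with the test of the difference of the genotype effect. That fit, and the fit without YFP-901 and YFP-902, were chosen after seeing the data. Alternatives were DESeq2 1.42.0, other size factors, other filters, other sets of libraries, the label prefix as a term, thinning to the lowest total, removal of a loess trend on exon length (span 0.5) and each library left out.

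Genes named are, in each direction, the 12 of largest log2FC past an adjusted p of 0.05 and a log2FC of 1 without overlap and with at least 5 CPM in the higher group, the 8 of highest level among those called, *w*, *y* and *TBPH*, at most 4 called members per list and direction, and 7 of the genes the study names. Some were chosen after their values were seen, as were the duplicate respiratory genes, *Cp36* and *Cp38*. The genes and the 33 lists were chosen with earlier results of these data known. On counts simulated from these libraries with 200 of 12728 genes changed, the fit recovered 18.6% of genes changed 2-fold and 59.8% of those changed 4-fold, and 3.8% of its calls were false. For the difference between fractions 50.5% and 86.6% were recovered over 12896 genes, and 8.28% of the calls were false. The simulated counts varied independently around a common mean. They held no libraries set apart, no label prefix and no length trend, and far fewer genes changed than the 31.2% called in inputs. The false shares of the simulation therefore do not give the false share of the calls reported here.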

Additional observations from a re-analysis of the deposited data

Results flagged for a closer look

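The genotype difference depended on the fraction of the lysate that was read. In the fit over both fractions it was larger in the input than in the unbound fraction for 2442 genes and smaller for 1756, at an adjusted p below 0.05 by edgeR's quasi-likelihood test of the difference. These genes include 29 of 31 synaptic, 16 of 19 neuron and 13 of 14 Kenyon cell genes on the larger side, and 61 of 90 oxidative phosphorylation and 59 of 71 mitochondrial ribosomal genes on the smaller side. The number of genes smaller in the input was 539 without lysate G298S-506, whose unbound library had the lowest levels of *Syt1*, *VAChT* and *Pka-C1* among the 6. The input and the unbound library of a lysate differ in the RNA that the beads took away, in the time on the beads and in the library made, and which of these moved with the values was not tested.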

How the results depend on the processing

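No paired analysis was possible because the G298S and YFP lysates share no number; within a lysate the input and unbound libraries are paired, and there the fit with the replicate block found 4198 genes whose genotype difference differed between the fractions, against 1608 (1106 of them larger in the input) with no replicate block. With library sizes alone there were 7328 (1411 larger and 5917 smaller), and leaving out 1 lysate gave 2569 (without G298S-506) to 5007 (without YFP-902). The genes called higher in inputs numbered 1922, against 3311 with DESeq2, 756 with the label prefix as a term, 290 in the unbound fraction, 3 without YFP-901 and YFP-902, and 772 (without YFP-902) to 3776 (without YFP-201) leaving out 1 library. Those called lower numbered 2185, against 4880 with library sizes alone, 144 in the unbound fraction, 26 without YFP-901 and YFP-902, and 928 to 2123 leaving out 1 library. With a log2FC above 1 there were 1323 higher genes, against 793 with library sizes alone, 2090 with DESeq2, 700 with the prefix term, 238 in the unbound fraction, 3 without YFP-901 and YFP-902, and 690 to 2828 leaving out 1 library. With a log2FC below -1 there were 534 lower genes, against 1599 with library sizes alone, 1325 with the prefix term, 271 with at least 10 counts in every input, 324 in the fit of input and IP libraries, 73 in the unbound fraction, 26 without YFP-901 and YFP-902, and 316 to 596 leaving out 1 library. The cause of these moves was not tested, and the fits with libraries left out also hold fewer libraries.

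The unbound fraction turned the direction of 42 of 122 named genes. Its log2FC values were -0.41, -0.36 and -0.63 for *mt:lrRNA*, *mt:ND4* and *mt:ND5*, -0.052, -0.29, -0.51 and 0.24 for *Msr-110*, *pAbp*, *Vha16-1* and *CG7203*, and -0.80, -0.51, -0.46 and -0.71 for *Pka-C1*, *dnc*, *Dop1R1* and *mub*. They were -0.94, -1.02, -0.72, -0.41, -0.78 and -0.49 for *VAChT*, *Syt1*, *brp*, *ple*, *Rbp* and *Liprin-alpha*, and -0.58, -0.45 and -0.62 for *Eaat1*, *inaE* and *g*. *Sxl*, *dsx*, *Atf6*, *sr*, *Clk* and *Hr38* had -0.80, -0.013, -0.50, -0.11, -0.011 and -0.21, and *Gapdh1*, *UQCR-6.4*, *COX8*, *mRpS14*, *Prosbeta3* and *Rpn9* had 0.033, 0.12, 0.10, 0.30, 0.31 and 0.018. *fz2*, *DIP-alpha*, *futsch*, *Dscam2* and *dlp* had -0.23, -0.91, -0.71, -0.81 and -1.12, and *alph*, *sqd*, *Vap33*, *Sod1* and *Ser7* had -0.49, -0.17, -0.74, 0.34 and 0.38. Relative to all genes, the medians of the Kenyon cell, neuron, synaptic and mitochondrial ribosomal lists were -0.64, -0.56, -0.74 and 0.052 there. In other settings *futsch* was -0.037 and *dlp* -0.22 with library sizes alone, *futsch*, *Dscam2* and *dlp* were -0.93 (adjusted p = 0.0043, a call), -0.092 and -0.11 with the length trend removed, and *dlp* ran from -0.023 (without YFP-201) to 0.267 (without G298S-503) with 1 library left out. *Cp36* and *Cp38* were -1.20 and -1.07 with the prefix term, -0.22 and -0.11 in the pair G298S-203 and YFP-201, and -0.55 and -0.32 without YFP-901 and YFP-902.

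Of 738 values of named genes with 1 library left out, 638 kept their side of the threshold and their direction, 98 no longer passed, 1 came to pass and 1 turned. Of the 116 named genes that passed, 85 passed in all 6 of these fits and 10 without YFP-901 and YFP-902. Depth limits the low genes, since the YFP inputs had 16845284 to 24557729 reads. A single YFP library is left in that last setting and is assumed to vary like the other groups.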
